A study of Mus musculus with 5 samples.

Results

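The genes of glycolysis, lactate handling, pyruvate dehydrogenase control and oxygen sensing were examined in haematopoietic stem cells (HSCs) of the bone marrow. They are 32 gene names, chosen by name from general knowledge of these pathways, and all 32 were found among the 55335 genes of the deposited table. They occupy 33 rows, because Aldoa has 2 rows. The values are TPM (length-corrected transcript shares scaled to a fixed total per library), so that levels of different genes can be compared with each other.

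Glycolysis splits glucose into pyruvate, and lactate dehydrogenase turns pyruvate into lactate when it is not passed on to the mitochondria. Pyruvate dehydrogenase kinases close that mitochondrial route by phosphorylating pyruvate dehydrogenase. HIF-1α, the oxygen-regulated subunit of the transcription factor HIF-1, is marked by prolyl hydroxylases and destroyed through the VHL ubiquitin ligase when oxygen is present. When it is stable it induces many glycolytic genes. Adult bone marrow HSCs are known for a high reliance on glycolysis and for low mitochondrial respiration.

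The libraries were made from 3 wild-type mouse samples and 2 samples labelled RankCre-ki, at 3 weeks of age. HSCs had been sorted as lineage-negative cells with Kit, Sca-1 and CD150 but without CD48, and the library names give 90, 90 and 80 cells for the wild-type and 80 and 86 cells for the RankCre-ki libraries. RankCre-ki stands for the genotype RankCre-ki/wt;Csf1r fl/-, in which Cre is placed in the Rank gene (Tnfrsf11a), and the gene of the CSF1 receptor carries a floxed and a null allele. According to the study this Cre acts in embryonic macrophages but spares HSCs, so that the mice lack those macrophages and osteoclasts while their HSCs are not themselves the target of the deletion. The labels give C57BL/6J for all 5 samples, whereas the study's methods state that the Csf1r null line was kept on C3H/HeJ. No label says whether replicates came from separate animals, so p-values measure only the spread between these libraries, which may be technical. The comparison asks how HSCs that developed without embryonic macrophages differ in the transcripts of energy metabolism.

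Several facts about the libraries precede the results. The library names fall into 2 series, series 1 with wild-type replicate 1 and replicate 2 of RankCre-ki, and series 2 with the other 3 libraries, and the kits for tagmentation differed, by the study's methods, between sets that match these series in composition. Csf1r had 0 to 2.39 TPM in the wild-type libraries, against 17.6 and 6.46 TPM in those labelled RankCre-ki, the opposite of a loss, although the study states no deletion in HSCs; the groups are therefore named by their labels alone. RankCre-ki replicate 2 is labelled female but held the Y-linked Eif2s3y at 62.6 TPM and Xist at 0.0229 TPM, so that name series and sex transcripts cannot be told apart. The 10 HSC marker genes summed to 490 to 1034 TPM in the wild-type and to 1486 and 794 TPM in RankCre-ki. At least 1 TPM was found for 9021 to 11084 genes in the wild-type against 12801 and 16386 genes in the RankCre-ki libraries, and the median log2 fold change of all 13981 tested genes was 0.52 in favour of RankCre-ki. Each difference below is to be read against that shift.

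The glycolytic chain was abundantly transcribed in HSCs of either label. Aldoa, Gapdh, Eno1 and Ldha were the highest members, and 10 members had a mean of at least 100 TPM over the 5 libraries, a level reached by 9.76% of tested genes. Every step from hexokinase to lactate dehydrogenase was detected in all 5 libraries, and 23 members reached at least 1 TPM in each library. Most members were higher in RankCre-ki, but no member passed the threshold of an adjusted p of at most 0.1 with an absolute log2 fold change above 2. No gene of all 13981 did (0%), and the smallest adjusted p was 0.521 over all genes and 0.58 among the members (limma on log2(TPM + 1), Benjamini-Hochberg adjustment over all tested genes). At an unadjusted p under 0.05, 960 genes (6.87%) were past the limit in either direction.

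**Figure D1:**
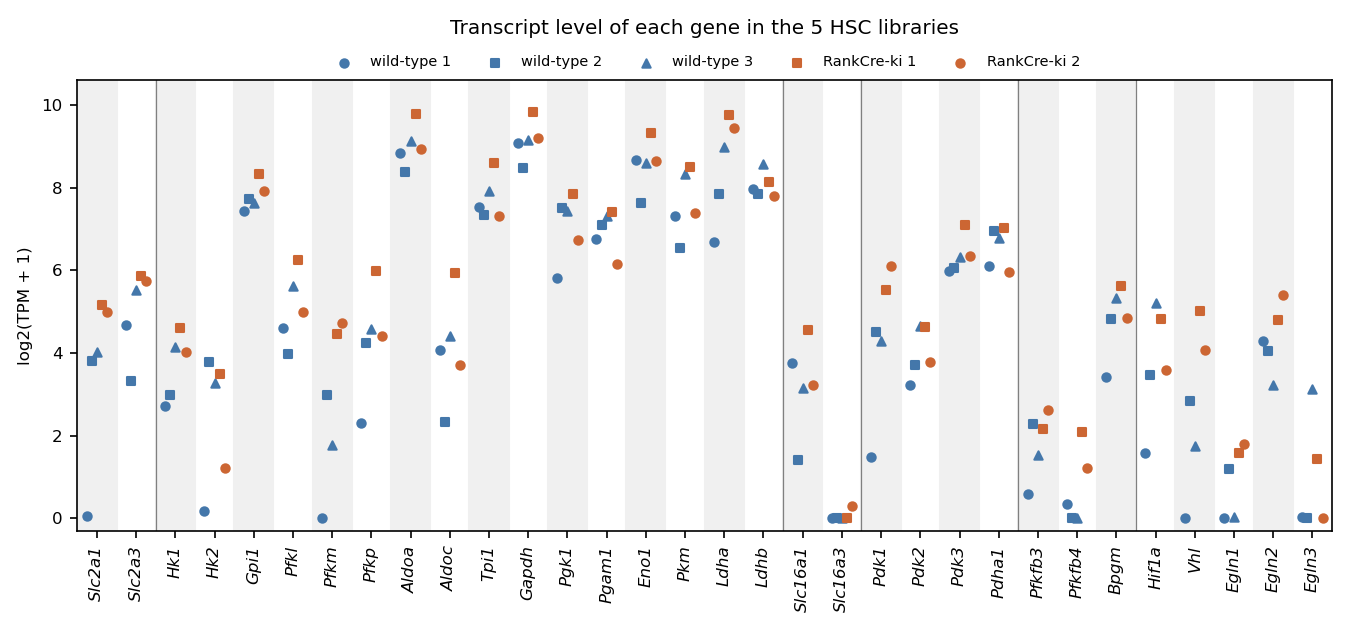
Level of each of the 32 genes, as log2(TPM + 1), in the 3 wild-type (blue) and 2 RankCre-ki (orange) libraries; symbols mark the replicates and vertical lines separate glucose transporters, enzymes, lactate transporters, pyruvate dehydrogenase genes, flux regulators and oxygen-sensing genes. The enzymes from Aldoa to Ldhb fill the top of the axis, and wild-type replicate 1 is at or near 0 for Slc2a1, Hk2, Pfkm, Vhl and Egln1.

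Of the 33 rows, 31 had at least 1 TPM in at least 2 libraries and were tested. The lactate exporter gene Slc16a3 was not tested, being at 0 in all libraries but RankCre-ki replicate 2 (0.231 TPM), and neither was the second Aldoa row, which had 3.65 TPM in RankCre-ki replicate 1 and at most 0.0313 TPM elsewhere. Pfkfb4 was the only member that passed the filter through the RankCre-ki libraries alone, as did 655 of all tested genes. It therefore had to lie above, and its place in the counts below supports nothing. The log2 fold change was above 0 for 26 of 31 members (83.9%), against 72.3% of all tested genes. Under median-ratio scaling or quantile normalization it was above 0 for 23 members, where the median of all genes was 0.16 or -0.09. The share of all genes above 0 under these scalings is not given here. The 2 groups were apart, with both RankCre-ki libraries above every wild-type library, for 12 members (38.7%), against 18.8% of all tested genes, and both were below for 0 members, against 3.71%. An unadjusted p under 0.05 was found for 2 higher members, Ldha and Pfkfb4 (6.45%), against 6.34% of all genes, and for 0 lower members, against 0.529%. In this fit the share of members at an unadjusted p under 0.05 was thus near that of all genes. With the name series as a block it was 19.4% for higher members, against 8.89% of all genes (unadjusted limma p).

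The median log2 fold change of the members was 0.79, which is 0.28 above the median of all tested genes. Among the 12 members with a mean of at least 50 TPM the median was 0.54, against 0.14 for the 2551 tested genes at that level. The 19 lower members had a median of 1.21, against 0.62 for the 11430 lower genes. Much of the height came from particular libraries. RankCre-ki replicate 1 held the highest value of 21 of 31 members (67.7%), against 24.8% of all genes, and wild-type replicate 1 held the lowest value of 16 members (51.6%), against 37.6%. Without RankCre-ki replicate 1 the members' median lay 0.29 below that of all genes instead of above it (a difference of -0.29). Without wild-type replicate 1, 14 members (45.2%) lay above all remaining wild-type libraries, against 29.6% of all genes. Without wild-type replicate 3 these were 20 members (64.5%, against 32.7%), and without RankCre-ki replicate 2 they were 25 (80.6%, against 33.8%). Without RankCre-ki replicate 1 they were 13 (41.9%, against 32.6%), and 4 members lay below (12.9%, against 12.1%). Without wild-type replicate 2 they were 13 (41.9%, against 24.3%). A fit without RankCre-ki replicate 1 or 2 leaves that group with 1 library, so no count past the threshold is given for it.

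**Figure D2:**
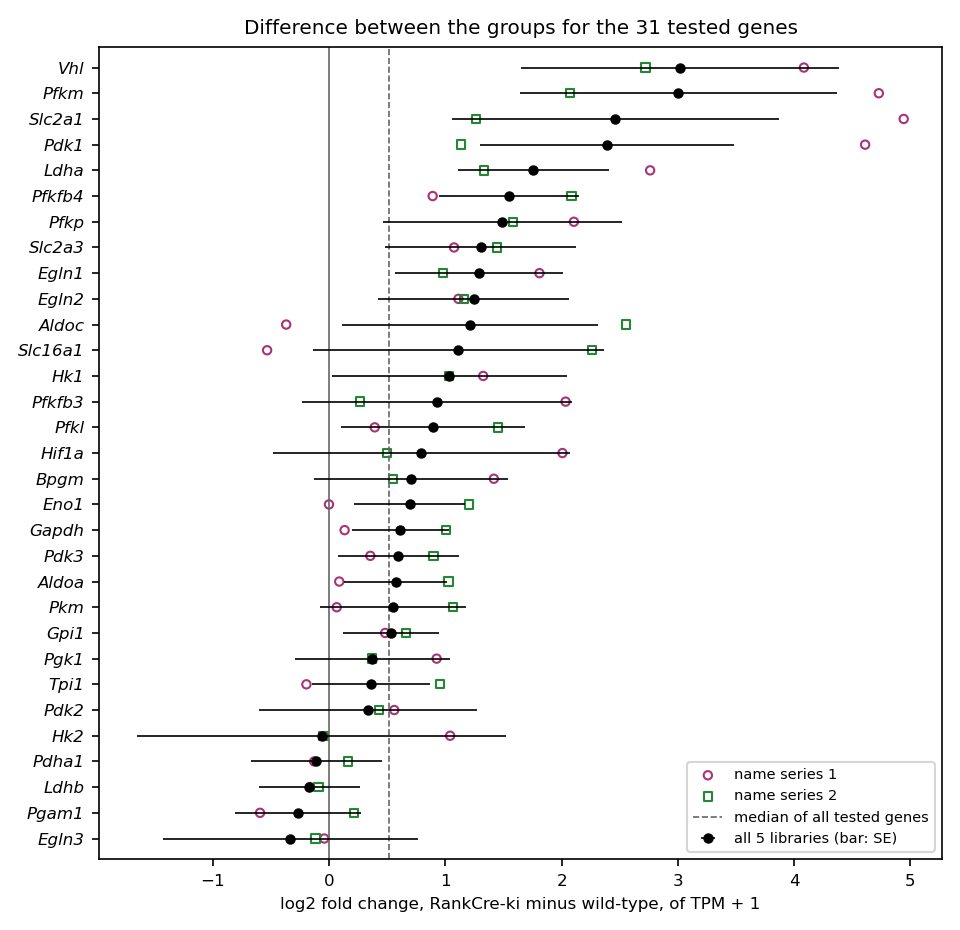
Log2 fold change of TPM + 1 (RankCre-ki minus wild-type) of the 31 tested genes; black points with bars are the estimate over 5 libraries with its standard error, open symbols are the differences within name series 1 (circles) and 2 (squares), and the dashed line is the median of all tested genes (0.52). Vhl and Pfkm have the highest estimates, at 3.02 and 3.00, and their bars are also among the widest.

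Glucose enters the cell through facilitative transporters, of which Slc2a1 encodes GLUT1 and Slc2a3 the high-affinity GLUT3. Slc2a1 (chr4:119108711-119137983, GRCm38) had 0.0434, 12.9 and 15.2 TPM in replicates 1, 2 and 3 of the wild-type, and 35.1 and 31.1 TPM in replicates 1 and 2 of RankCre-ki. Both RankCre-ki libraries lay above the wild-type libraries, which were themselves split by a near absence in replicate 1. The log2 fold change was 2.46 ± 1.40 (SE, n = 3 and 2, limma adjusted p = 0.881). With a library left out it ranged from 1.18 (without wild-type replicate 1) to 3.16 (without wild-type replicate 3). Within name series 1 the log2 difference was 4.94, and within name series 2 it was 1.27. Slc2a3 stood at 24.7, 9.02 and 44.8 TPM against 57.2 and 53.1 TPM, in the same order of libraries, again without overlap. Its log2 fold change was 1.30 ± 0.82 (limma adjusted p = 0.887), and the differences within the series were 1.07 and 1.44. In wild-type replicate 1 Slc2a1 made up 0.175% of the 2 transporters' summed TPM and in the other wild-type libraries 58.9% and 25.3%, against 38.0% and 36.9% in the RankCre-ki libraries, so that the share overlapped between the groups.

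Hexokinases trap glucose in the cell by phosphorylation. Hk1 ranged from 5.56 to 16.8 TPM in the wild-type and from 15.4 to 23.3 TPM in RankCre-ki. Hk2, the insulin- and HIF-responsive isoform, was at 0.136, 12.9 and 8.71 TPM against 10.2 and 1.34 TPM, being low in both libraries of name series 1. Neither isoform separated the groups.

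Gpi1 encodes glucose-6-phosphate isomerase, the step after hexokinase, and was among the few members with a narrow spread. It had 173, 210.8 and 195.8 TPM in the wild-type and 322 and 242 TPM in RankCre-ki, which do not overlap. The means were 193 ± 19.0 TPM (SD, n = 3) and 282 ± 56.8 TPM (SD, n = 2), and the log2 fold change of 0.53 ± 0.41 (limma adjusted p = 0.916) was close to the median of all genes.

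Phosphofructokinase catalyses the committed step of glycolysis and is built from liver (Pfkl), muscle (Pfkm) and platelet (Pfkp) subunits. Pfkm (chr15:98092589-98132451) had 0, 6.92 and 2.43 TPM in the wild-type, against 20.9 and 25.5 TPM in RankCre-ki. The lowest RankCre-ki value was thus above the highest wild-type value, and the wild-type libraries were spread from no signal upward. The log2 fold change was 3.00 ± 1.36 (unadjusted p = 0.0589, limma adjusted p = 0.756), with 4.73 within name series 1 and 2.07 within series 2. With a library left out it ranged from 2.21 (without wild-type replicate 1) to 3.70 (without wild-type replicate 2). The start of Pfkm overlaps the opposite-strand gene Senp1, which had 2.77 to 40.01 TPM in the wild-type, against 16.1 and 13.3 TPM in RankCre-ki; the sources do not state whether strand was used for the TPM. Pfkl, the main isoform in most libraries, ranged from 14.9 to 48.3 against 31.03 and 75.6 TPM, and Pfkp from 3.95 to 23.1 against 20.3 and 62.9 TPM, both with overlap. Summed over the 3 subunits, phosphofructokinase came to 27.4, 39.8 and 73.8 TPM against 159 and 76.8 TPM. The means were 47.0 ± 24.1 and 118 ± 58.4 TPM, a ratio of 2.51, with an exact two-sided permutation p of 0.2, which is the smallest that 3 against 2 libraries allow.

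From aldolase to pyruvate kinase, every step but glyceraldehyde-3-phosphate dehydrogenase overlapped between the groups. Aldoa, the aldolase of most tissues, had 461, 330 and 559 TPM in the wild-type and 875 and 489.6 TPM in RankCre-ki. Tpi1, triosephosphate isomerase, stood at 183, 162 and 242 TPM against 384 and 159.6 TPM. In both genes RankCre-ki replicate 1 was the highest library, and replicate 2 lay within or below the wild-type range. Gapdh had 541, 358 and 573 TPM against 908 and 593 TPM and did not overlap, but replicate 2 exceeded the highest wild-type library by little. Its log2 fold change was 0.61 ± 0.42 (limma adjusted p = 0.898), with 0.13 within name series 1 and 1.003 within series 2. Near-identical copies of Gapdh, 179 in number, summed to 3.16% to 5.46% of its TPM in the wild-type and to 3.80% and 12.4% in the RankCre-ki libraries, so an uncertain part of its signal could lie in these copies.

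Pgk1, phosphoglycerate kinase and the first step that returns ATP, had 55.5, 183 and 171 TPM against 229 and 106 TPM. Pgam1, phosphoglycerate mutase, had 108, 136 and 158 TPM against 170.3 and 70.9 TPM and a log2 fold change of -0.27. In both, the 2 libraries of name series 1 were the lowest of the 5, whatever their label. Eno1, enolase, stood at 404.0, 198 and 388 TPM against 640.1 and 403.5 TPM, so that both libraries of name series 1 were alike. Pkm, pyruvate kinase, had 159, 92.2 and 319 TPM against 361 and 166 TPM, with the same high replicate. Aldoc, the brain-type aldolase, followed it too, at 4.06 to 20.4 TPM in the wild-type, against 60.1 and 12.1 TPM in replicates 1 and 2 of RankCre-ki.

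Summed over the 16 enzyme genes from hexokinase to lactate dehydrogenase, glycolysis took 2484, 2194 and 3616 TPM in replicates 1, 2 and 3 of the wild-type and 5283 and 3252 TPM in replicates 1 and 2 of RankCre-ki. The means were 2760 ± 752 TPM (SD, n = 3) and 4270 ± 1440 TPM (SD, n = 2), a ratio of 1.54. The groups overlapped, and the exact two-sided permutation p was 0.4. When the libraries were scaled by median ratios, the difference of 1503 TPM between the means shrank to 290 TPM. It was 488 TPM without RankCre-ki replicate 1 and 2519 TPM without RankCre-ki replicate 2. Of the 11 steps, glucose-6-phosphate isomerase, phosphofructokinase, glyceraldehyde-3-phosphate dehydrogenase and lactate dehydrogenase were higher in both RankCre-ki libraries than in any wild-type library.

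**Figure D3:**
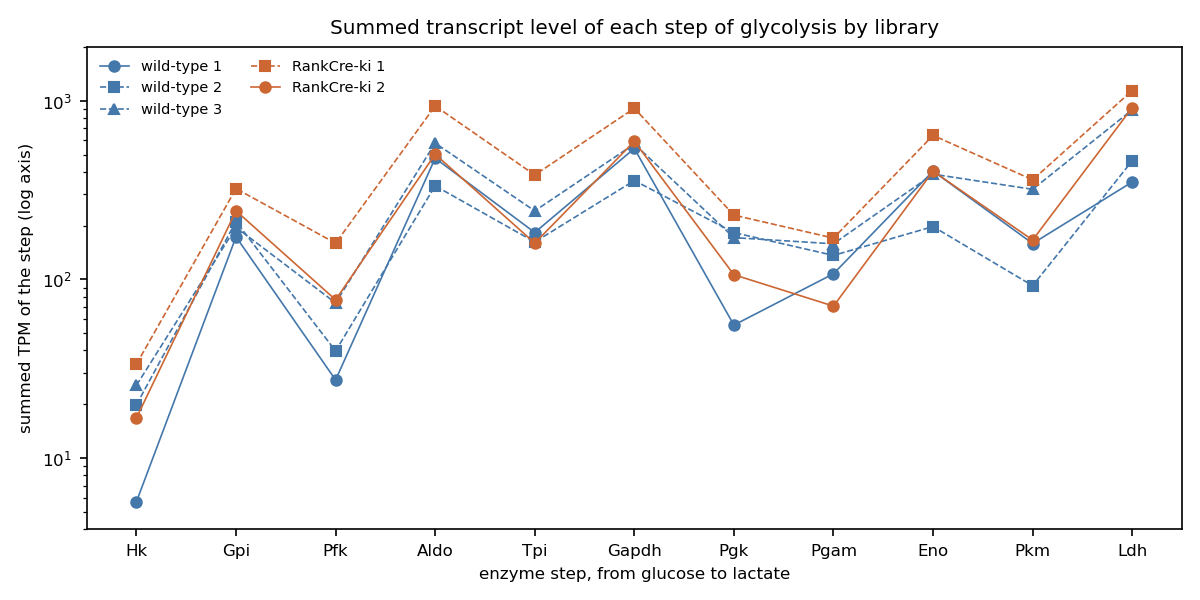
Summed TPM of the genes of each enzyme step (log axis) in the 3 wild-type (blue) and 2 RankCre-ki (orange) libraries, with solid lines for name series 1 and dashed lines for series 2; the lines only connect the points of a library. RankCre-ki replicate 1 is the highest library at all 11 steps, while RankCre-ki replicate 2 runs near the wild-type libraries from aldolase to pyruvate kinase.

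At the end of the pathway, lactate dehydrogenase is a tetramer of subunits from Ldha, the form that favours lactate production, and Ldhb, the form that prevails in oxidative tissues. The promoters of this pair are shown because the groups were apart for Ldha and overlapped for Ldhb, and that of Pdk1 because it is the other isoform whose share did not overlap. The sequences are those of RefSeq (GRCm38.p6), from 250 bases before to 50 bases after the most upstream start, 5′ to 3′ on the gene's strand. Capitals mark the core to which HIF binds, spelled ACGTG. The form that begins with G instead, GCGTG, is marked too, and so are their reverse complements. That of the first form reads CACGT. That of the second form reads CACGC. Where the core stands on both strands at once, in CACGTG, it counts 2 times. They are Ldha at chr7:46845554-46845853 (plus strand), Ldhb at chr6:142507908-142508207 (minus strand) and Pdk1 at chr2:71872974-71873273 (plus strand).
Ldha: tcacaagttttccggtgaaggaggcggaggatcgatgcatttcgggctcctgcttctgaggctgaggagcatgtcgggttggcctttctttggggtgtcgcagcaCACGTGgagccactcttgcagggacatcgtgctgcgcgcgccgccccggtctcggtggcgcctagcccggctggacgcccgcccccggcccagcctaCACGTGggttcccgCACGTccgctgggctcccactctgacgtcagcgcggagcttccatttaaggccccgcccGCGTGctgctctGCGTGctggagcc
Ldhb: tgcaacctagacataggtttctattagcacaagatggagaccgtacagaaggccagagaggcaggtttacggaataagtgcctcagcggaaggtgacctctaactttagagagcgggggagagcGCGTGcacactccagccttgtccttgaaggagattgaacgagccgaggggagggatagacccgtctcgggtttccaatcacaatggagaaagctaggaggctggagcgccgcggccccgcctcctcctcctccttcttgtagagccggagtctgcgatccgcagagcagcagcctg
Pdk1: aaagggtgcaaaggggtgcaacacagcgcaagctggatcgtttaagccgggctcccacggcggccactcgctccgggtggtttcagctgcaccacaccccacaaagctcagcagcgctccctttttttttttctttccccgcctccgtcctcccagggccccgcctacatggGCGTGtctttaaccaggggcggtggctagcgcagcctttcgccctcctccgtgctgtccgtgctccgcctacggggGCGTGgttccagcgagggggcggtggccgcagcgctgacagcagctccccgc

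The Ldha window held 7 matches, a number reached by 0.301% of the 32851 RefSeq promoters, the Ldhb window held 1 and the Pdk1 window 2. At least 1 match was found in 36 of the 46 promoters of 31 members (78.3%; promoters of the same gene can overlap), against 43.8% of all promoters. At least 4 matches were found in 8 member promoters, against 3.86% of all. A match describes letters and is not a measured binding site. The members were chosen from pathways in which HIF induces many genes, so the excess over all promoters could follow from that choice.

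Ldha (chr7:46841475-46855627) had 101, 231 and 507 TPM in replicates 1, 2 and 3 of the wild-type and 862 and 694 TPM in replicates 1 and 2 of RankCre-ki. Both RankCre-ki libraries were above all wild-type libraries, and the wild-type libraries themselves spanned 101 to 507 TPM. The means were 280 ± 207 TPM (SD, n = 3) and 778 ± 119 TPM (SD, n = 2). The log2 fold change was 1.76 ± 0.65 (unadjusted p = 0.0272, limma adjusted p = 0.58), and Ldha was higher within both name series, by 2.76 and 1.33. Over the alternative settings its direction stayed the same, while the unadjusted limma p ranged from 0.0078 without wild-type replicate 3 to 0.199 without RankCre-ki replicate 1. Its 9 near-identical copies held at most 0.341% of its TPM.

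Ldhb (chr6:142490249-142507957) had 249.6, 230.5 and 384 TPM in the wild-type and 279 and 222 TPM in RankCre-ki. Its log2 fold change was -0.17 ± 0.43 (limma adjusted p = 0.992), and the groups overlapped. Ldha thus made up 28.9%, 50% and 56.9% of the summed lactate dehydrogenase TPM in the wild-type and 75.5% and 75.7% in the RankCre-ki libraries. The RankCre-ki shares were nearly equal and lay above all wild-type shares, with means of 75.6% ± 0.134 and 45.3% ± 14.6 and a difference of 30.3 percentage points. The exact two-sided permutation p was 0.2, the smallest this design allows (adjusted p = 1.0 over the 14 isoform shares). A share within a library does not change when a library is rescaled as a whole. When any 1 library was left out, the difference stayed between 22.2 and 36.2 points.

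**Figure D4:**
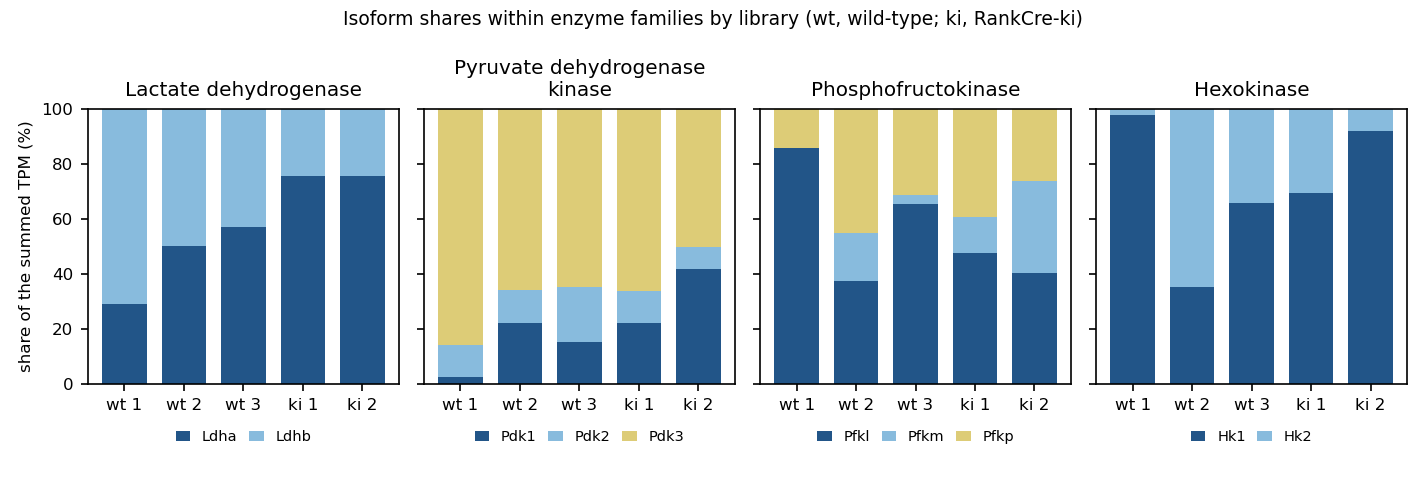
Share (%) of each isoform in the summed TPM of its family in the 3 wild-type (wt) and 2 RankCre-ki (ki) libraries, for lactate dehydrogenase, the 3 listed pyruvate dehydrogenase kinases, phosphofructokinase and hexokinase. Ldha takes 75.5% and 75.7% in the RankCre-ki libraries and 28.9% to 56.9% in the wild-type libraries, and hexokinase and phosphofructokinase show no such separation.

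Lactate leaves or enters the cell through monocarboxylate transporters. Slc16a1, encoding MCT1, was at 12.6, 1.67 and 7.90 TPM against 22.4 and 8.42 TPM, with overlap and with opposite directions in the series (-0.53 and 2.26). Slc16a3, encoding the exporter MCT4 of highly glycolytic cells, was at or near 0 throughout, as given above.

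Of the pyruvate dehydrogenase kinases, Pdk1 is the isoform that HIF-1 induces. Pdk1 (chr2:71873224-71903858) had 1.80, 21.8 and 18.6 TPM in the wild-type and 45.5 and 67.4 TPM in RankCre-ki, with no overlap. Wild-type replicate 1 again stood far below the other libraries. The log2 fold change was 2.39 ± 1.09 (unadjusted p = 0.0608, limma adjusted p = 0.761). With a library left out it ranged from 1.41 (without wild-type replicate 1) to 2.93 (without wild-type replicate 2). The log2 difference was 4.61 within name series 1 and 1.13 within series 2. Whether the 2 series differ cannot be judged, because wild-type replicates 2 and 3 are the only libraries that share label and series.

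Pdk3, on the X chromosome, was the most abundant kinase of the family in all libraries, with 62.9, 65.8 and 79.0 TPM against 135 and 80.7 TPM. The groups did not overlap, but RankCre-ki replicate 2 exceeded the highest wild-type library by little, and the log2 fold change was 0.59 ± 0.52 (limma adjusted p = 0.934). Pdk2 had 8.41, 12.2 and 24.4 TPM against 23.7 and 12.9 TPM, with overlap. Pdk1 made up 2.46%, 21.9% and 15.3% of the 3 kinases' TPM in the wild-type and 22.2% and 41.9% in the RankCre-ki libraries. The difference of 18.9 points had an exact permutation p of 0.2 (adjusted p = 1.0), and the lower RankCre-ki share was next to the highest wild-type share. The difference was 9.05 points without RankCre-ki replicate 2 and 28.7 points without RankCre-ki replicate 1. Their substrate Pdha1, the E1 alpha subunit of pyruvate dehydrogenase, had 67.6, 122 and 108.5 TPM against 129 and 61.8 TPM and a log2 fold change of -0.11 ± 0.57 (limma adjusted p = 0.993).

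Bifunctional enzymes make or remove fructose-2,6-bisphosphate, the strongest activator of phosphofructokinase. Pfkfb4 had 0.264, 0 and 0 TPM in the wild-type, against 3.24 and 1.34 TPM in RankCre-ki. It could be tested only because of its level in the RankCre-ki libraries, and its log2 fold change was 1.54 ± 0.60 (unadjusted p = 0.0337, limma adjusted p = 0.633). Pfkfb3, the isoform of proliferating and hypoxic cells, was at 0.507, 3.85 and 1.91 TPM against 3.51 and 5.17 TPM, with overlap. Bpgm, which diverts carbon to 2,3-bisphosphoglycerate in red cells, had 9.73, 27.1 and 39.2 TPM against 48.2 and 27.6 TPM and overlapped as well.

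Among the oxygen-sensing genes, Hif1a itself did not separate the groups. It had 2.00, 10.1 and 36.0 TPM in replicates 1, 2 and 3 of the wild-type and 27.6 and 11.04 TPM in replicates 1 and 2 of RankCre-ki, a log2 fold change of 0.79 ± 1.28 (limma adjusted p = 0.986). The wild-type libraries alone spanned the whole range. HIF-1α is controlled chiefly by protein stability, which transcript levels do not measure.

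Vhl (chr6:113623959-113631633), the substrate receptor of the ligase that removes HIF-1α, had 0, 6.15 and 2.39 TPM in the wild-type, against 31.4 and 15.96 TPM in RankCre-ki. The groups did not overlap, and the log2 fold change of 3.02 ± 1.37 was the highest of the members (unadjusted p = 0.0588, limma adjusted p = 0.756). The differences within the name series were 4.08 and 2.72. Egln2, a prolyl hydroxylase that marks HIF-1α, had 18.5, 15.7 and 8.35 TPM against 26.9 and 41.1 TPM, also without overlap, with a log2 fold change of 1.24 ± 0.82 (limma adjusted p = 0.892). Egln1, the main hydroxylase of this kind in most cells, was low, at 0, 1.29 and 0.0262 TPM against 2.02 and 2.50 TPM, without overlap. Egln3, a hydroxylase that HIF itself induces, was at 0.0299, 0 and 7.72 TPM against 1.72 and 0 TPM, so that wild-type replicate 3 alone carried it.

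The members above all wild-type libraries were Slc2a1 and Slc2a3 of the transporters, Gpi1, Pfkm, Gapdh and Ldha of the enzymes, Pdk1 and Pdk3 of the kinases, Pfkfb4 of the regulators, and Vhl, Egln1 and Egln2 of the oxygen sensors. Higher within both name series, as groups without overlap must be, were 22 of 31 members (71%), against 44.5% of all tested genes. Lower in both were 2 members, Ldhb and Egln3 (6.45%), against 12.9%. The median difference within name series 1 was 0.89 for the members and 0.53 for all genes, and within series 2 it was 1.03 and 0.40. Under median-ratio scaling, 7 members lay above (22.6%, against 12.2% of all genes) and 2 below all wild-type libraries (6.45%, against 8.88%).

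Other genes of the same pathways gave a mixed picture. Of 22 further glycolytic isoforms and genes of pyruvate entry, 17 were tested, 0 passed the threshold, 8 lay above and 1 below all wild-type libraries (18.8% and 3.71% of all genes did), and the median log2 fold change was 1.10. An unadjusted p under 0.05 was found for 5, all higher (6.34% of all genes were). All 5 were at or below 0.266 TPM in the wild-type libraries and passed the filter through the RankCre-ki libraries alone. They therefore had to lie above, and their count and p-values support nothing. These 5 are also among the 8 genes above and enter the median of 1.10, so neither figure can be set against all genes. Eno3, the muscle enolase, had no signal in the wild-type (0 in all 3) and 4.45 and 13.7 TPM in RankCre-ki, and Tigar, a fructose-2,6-bisphosphatase, at 0 against 3.15 and 5.97 TPM. Pdk4, a kinase of pyruvate dehydrogenase induced by fasting, had 0.266, 0.0098 and 0.0123 TPM against 1.97 and 5.58 TPM. Eno2 had at most 0.0867 TPM against 4.08 and 1.11 TPM, and the phosphatase gene Pdp2 at most 0.24 TPM against 2.31 and 3.07 TPM. Mpc1, a subunit of the mitochondrial pyruvate carrier, was the gene below, at 287, 379 and 301 TPM against 274 and 131 TPM (log2 fold change -0.75 ± 0.47, limma adjusted p = 0.887); it was chosen after its values were seen.

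The 8 genes of the pentose phosphate pathway, which branches off at glucose-6-phosphate, were all tested. All 8 had a log2 fold change above 0 (72.3% of all genes did), with a median of 1.09, 5 lay above all wild-type libraries (18.8% of all genes), and 0 passed the threshold or an unadjusted p under 0.05. Among 4 tested genes of gluconeogenesis the median was 0.70 and 1 gene lay above all wild-type libraries (18.8% of all genes did).

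Of 15 HIF subunits and regulators, 13 were tested, with a median log2 fold change of 0.20, 2 genes above and 2 below all wild-type libraries (18.8% and 3.71% of all genes), and 0 past the threshold. Os9, an endoplasmic reticulum lectin also described as a partner of HIF-1α, was at 0.0672, 2.75 and 2.45 TPM against 39.1 and 60.7 TPM (log2 fold change 4.37 ± 1.23, unadjusted p = 0.00757, limma adjusted p = 0.521). The genes below were Rbx1 and Eloc, subunits of the VHL ligase, and both were chosen after their values were seen. Eloc had 257, 288 and 469.9 TPM against 205 and 144 TPM, and Rbx1 391, 428 and 390.4 TPM against 299 and 229.7 TPM. The other listed subunits overlapped between the groups: Elob had 1210, 355 and 367 TPM against 289 and 577 TPM, and Cul2 21.0, 42.7 and 26.6 TPM against 56.7 and 16.4 TPM. Epas1, encoding HIF-2α, was at or below 0.199 TPM in all libraries, and Arnt, Hif1an and Cited2 overlapped between the groups.

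HIF target genes outside the members were counted in the same way. Of 26 listed, 25 were found and 16 tested. An unadjusted limma p under 0.05 was found for 0, against 6.34% of all genes higher and 0.529% lower. The log2 fold change was above 0 for 11 of the 16, against 72.3% of all genes. Their median was 0.16, below the 0.52 of all genes. The groups were apart for 2 of the 16 with RankCre-ki higher (18.8% of all genes), and for 0 with RankCre-ki lower (3.71%). Whether these counts differ from the shares of all genes was not tested. Vegfa was at 0.0193, 0.0542 and 4.90 TPM against 0.399 and 0.0149 TPM and was not tested.

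Markers of other cell types were read beside these results; the study's sort had removed cells with lineage markers, red-cell precursors, lymphoid and natural killer cells and granulocytes among them. The 9 erythroid marker genes found summed to 258, 147 and 149 TPM in the wild-type and to 322 and 900 TPM in RankCre-ki, without overlap. Of the 7 that were tested only Hbb-bt lay above all wild-type libraries, at 36.2, 124 and 109 TPM against 251 and 632 TPM, and it made up most of the sum except in wild-type replicate 1. The other 6 overlapped between the groups, and Hba-a1, with 31.6, 0 and 3.78 TPM against 1.58 and 2.87 TPM, had a log2 fold change of -0.77. Slc4a1, a gene of later erythroid cells, was at 0 in all libraries. Macrophage markers summed to 18.4, 53.9 and 52.4 TPM against 33.5 and 52.8 TPM, with Adgre1 and C1qc at 0 throughout. Granulocyte and monocyte markers summed to 433 to 654 TPM against 636 and 506 TPM, with Elane and Ctsg at 0. Among them S100a8 had 0.0677, 0 and 0 TPM against 8.31 and 12.9 TPM. Klrb1c, a natural killer cell gene of the lymphoid list, had 0.0516, 0 and 0 TPM against 4.40 and 12.8 TPM. Cd48, whose protein the sort excludes, had 0 in the 3 wild-type libraries, against 4.92 and 5.62 TPM in RankCre-ki. S100a8, Klrb1c and Cd48 reached 1 TPM through the RankCre-ki libraries alone and were chosen after their values were seen. The part of such transcripts in the differences of Ldha, Slc2a1 and Pdk1 was not tested. The erythroid sum, S100a8, Klrb1c, Cd48 and Pdk1 were highest in replicate 2 of RankCre-ki, and Ldha and Slc2a1 in replicate 1. Mitochondrially encoded transcripts took 14.7%, 21.0% and 16.7% of all TPM in wild-type and 10.7% and 8.21% in RankCre-ki libraries. With the TPM rescaled to nuclear protein-coding genes, which leaves these transcripts out, the median log2 fold change of all genes was 0.44 and that of the members 0.67. The log2 fold change of Ldha was then 1.59, and the difference of the summed enzymes was 1465 TPM. In libraries of whole pools, a different number of cells that carry a transcript and a different amount per cell cannot be told apart.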

How the data were processed

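According to the study, RNA of 80 to 90 sorted HSCs per library was turned into cDNA by oligo(dT) priming and template switching, then amplified by PCR and tagmented. The authors aligned reads with gsnap to mm10 and counted them with featureCounts 2.0.1; the software behind the deposited TPM is not given in the sources used here. The TPM hold no record of sequencing depth, so only the spread between libraries tells their precision. The 92 spike-in rows, all at 0, were removed from the 55427 rows.

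TPM were transformed to log2(TPM + 1), on which scale changes of low genes are understated. All genes reaching 1 TPM in 2 or more libraries were fitted with limma 3.58.1 (R 4.3.3; mean-variance trend, two-sided, no covariate, 3 wild-type against 2 RankCre-ki libraries) and adjusted by Benjamini-Hochberg over 13981 genes. The study's own threshold was used. The code was tested on simulated data. Isoform shares and sums were compared by exact two-sided permutation (scipy 1.17.1). Near-identical copies were transcripts of other genes aligning to a member by minimap2 2.31 over at least 50% of their length and 200 bases at 90% identity. Positions are from GENCODE M21 (GRCm38, equal to mm10), in which 99.7% of identifiers were found, and promoters from RefSeq GRCm38.p6; Slc2a3 had no promoter entry.

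The members, the lists and the rule for named genes were chosen with earlier results of these data known. Members were named throughout, with values in every library for those whose groups did not overlap, the 10 highest and the oxygen-sensing genes. Other genes were named where fixed in their list or at an unadjusted p under 0.05. Alternatives were other pseudocounts, filters, scalings and blocks, and leaving out each library.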

Additional observations from a re-analysis of the deposited data

How the results depend on the processing

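With 3 against 2 libraries, exact permutation cannot go below p = 0.2, and TPM give no depth. Of 430 fold changes of members under 14 alternative settings, 403 kept their direction, and 19 of 31 members never reversed. Leaving out each library gave 0 to 304 genes past the threshold (304 without RankCre-ki replicate 1, with the lone RankCre-ki library assumed to vary like the others), 1 to 3 members higher at an unadjusted p under 0.05, and a median difference between members and all genes from -0.29 to 0.51. It gave 13 to 25 members above (41.9% to 80.6%, against 24.3% to 33.8% of all genes) and 0 to 4 below all wild-type libraries (12.9% at most, against 5.66% to 12.3%), an alternative chosen after seeing the data.

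Members higher at an unadjusted p under 0.05 numbered 1 with a filter of 5 TPM (3.7%, against 4.32% of all genes), 0 with median-ratio scaling (against 4.56%), 1 with quantile normalization (3.23%, against 3.04%) and 6 with the name series as a block (19.4%, against 8.89%). The median difference was 0.0464 with a pseudocount of 0.1, 0.56 with no filter, 0.59 with quantile normalization and 0.49 with the name series as a block. Median-ratio scaling gave 7 members above and 2 below. It moved the median of all genes from 0.52 to 0.16, and quantile normalization moved it to -0.09; the share of higher genes among those at an unadjusted p under 0.05 went from 92.3% to 65.9% and 69%.

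Same-numbered replicates did not deviate together (correlations of -0.38 and -0.195), so they share only a number; with the replicate block 1 gene passed the threshold.

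Reversed isoform differences, in points, were Hk1 without wild-type replicate 2 (range with a library left out -1.001 to 30.3); Pfkp without wild-type replicate 1 or RankCre-ki replicate 1 (-5.33 to 10.1); Slc2a1 without wild-type replicate 1 (-4.64 to 24.7); Aldoa without RankCre-ki replicate 1 (-3.74 to 0.28); and, without wild-type replicate 3, Egln2 (-5.1 to 18.9) and Egln3 (-21.3 to 2.74). Reversed log2 fold changes were Hk2 at 0.36 (pseudocount 0.1), 0.42 (series block) and 0.37 (replicate block); Tpi1 at -0.15, Pgk1 at -0.13 and Pdk2 at -0.14 (median-ratio scaling); Pdk2 at -0.19, Egln1 at -0.0902 and Pfkfb3 at -0.28 (quantile normalization); Pdha1 at 0.0381 (series block); and Ldhb at 0.0547 and Egln3 at 0.70 (replicate block). With a library left out, log2 fold changes of both signs were found for Hk2 (-1.20 to 1.07), Tpi1 (-0.27 to 0.99), Pgk1 (-0.18 to 0.92), Pgam1 (-0.89 to 0.36), Pkm (-0.0107 to 1.10), Ldhb (-0.33 to 0.0547), Pdk2 (-0.0803 to 0.75), Pdha1 (-0.64 to 0.42), Hif1a (-0.13 to 1.68) and Egln3 (-1.06 to 0.70). The cause was not tested.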

Other observations

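Hk2, Pgk1, Pgam1 and Pdha1 were lower in wild-type replicate 1 and RankCre-ki replicate 2, the 2 libraries of name series 1, than in all 3 of series 2, which is 4 of 31 members and a share no higher than the 15.9% of all tested genes. Of the 423 tested X-linked genes 21.7% did so. Pgk1 and Pdha1 are X-linked. For Pdha1 the values were 67.6 and 61.8 TPM in series 1 and 108.5 to 129 TPM in series 2, and for Pgk1 55.5 and 106 TPM against 171 to 229 TPM. The same 2 libraries held Xist at 0.0273 and 0.0229 TPM, against 5.16 to 22.5 TPM in series 2, and the Y-linked Eif2s3y at 41.6 and 62.6 TPM, against at most 0.288 TPM. With these 5 libraries, sex transcripts and name series cannot be told apart. No member was higher in both libraries of series 1 than in all of series 2, against 17.1% of all tested genes.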
